A study of Homo sapiens with 3 samples.

Results

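The cells described here are 400 cells of a mesothelioma cell line that stood out for RNA of ADGRL3, PPP2R2B and ITGB8, out of 8913 cells kept from 1 pool. They were chosen by the share of a cell's UMIs (unique molecular identifiers, each standing for 1 captured RNA molecule) that came from these 3 genes, and the 400 highest cells were taken. Kept barcodes carried 1000 or more UMIs and 1000 or more counts in chromatin peaks, and mitochondrial genes gave no more than 20% of their UMIs. The other 8513 cells are the group they are set against. The 3 genes chose the cells, so their own RNA in the 400 is given as a description only. It is compared solely in cells ranked without the gene in question.

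The pool was assayed with the 10x Genomics Multiome kit, which reads RNA and open chromatin (by transposase insertion, ATAC) from the same permeabilised cell. It held CL3, a GNE7883-resistant clone, and the parental NCI-H226 cells from which it was derived, each exposed to GNE7883, an inhibitor of the TEAD transcription factors, or to DMSO. CL3 is 1 clone, raised per the labels under a TEAD inhibitor increased over time (0.25 to 3 µM, in increments of 0.1 to 0.5 µM), and the labels call the line NF2 null: it lacks a tumour suppressor that feeds the Hippo pathway. Conditions were told apart by antibody hashtags before pooling, but the matrix used here lists none of the 4 hashtags, so no cell could be assigned to CL3 or parental cells, or to drug or DMSO. All cells are therefore 1 sample without replicates: no p-value is given, and intervals are 95% intervals that cover counting error only.

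As background, ADGRL3 (latrophilin 3) is an adhesion G protein-coupled receptor that binds teneurins and FLRT proteins on neighbouring cells and is best known at synapses. PPP2R2B is a regulatory B subunit that directs the phosphatase PP2A to its substrates, and is best known in neurons. ITGB8 pairs with integrin alpha V to form a receptor that releases active TGF-beta from its latent complex. In a cell line that lacks NF2, YAP and its relative WWTR1 (TAZ) are free to enter the nucleus and act through TEAD factors, the step that a TEAD inhibitor blocks.

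The choice rested on few molecules per cell. The highest share was 0.607% of a cell's UMIs and the median of the 400 was 0.110%. The last cell inside had 1 UMI of the 3 genes among 1135 (0.0881%) and the first cell outside had 1 among 1136 (0.0880%), so cells on both sides of the limit are alike. Of the 400 cells, 146 were chosen on 1 UMI, 114 on 2 and 140 on 3 or more, with 19 as the most. UMIs of a single one of the genes chose 216 cells, 2 genes chose 146 and all 3 chose 38. The 400 held 1020 of the 2152 UMIs of these genes, and 1416 of the 8913 cells had at least 1. As a description of the choice, ADGRL3 stood at 769 CPM (counts scaled to a total of 1000000 UMIs) in the 400 cells and 34.9 CPM in the other cells. PPP2R2B stood at 372 CPM in the 400 and 15.9 CPM in the others, and ITGB8 at 317 and 20.5 CPM. In free RNA, summed over barcodes with 100 UMIs or fewer, the same genes gave 37.0, 14.8 and 18.5 CPM. The 8513 other cells lay within a few CPM of free RNA for all 3 genes, but the rule had taken the highest cells out of them. They still held 1132 UMIs of these genes, so this is no reading of the level in the rest of the pool.

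As a check of the label, each gene was read in cells chosen without it. In the 400 cells ranked highest on PPP2R2B and ITGB8 alone, ADGRL3 stood at 248 CPM, against 58.7 CPM in the other cells (ratio 4.24, 3.55 to 5.02). Ranked on ADGRL3 and ITGB8, the 400 cells had 162 CPM of PPP2R2B, against 25.7 CPM in the others (6.29, 5.02 to 7.82). Ranked on ADGRL3 and PPP2R2B, they had 158 CPM of ITGB8, against 27.9 CPM (5.66, 4.52 to 7.03). The 3 genes were thus found in the same cells more than in other cells, whichever was left out. The chromatin of the 400 cells is a readout that the choice did not use. A gene's start here is the whole start interval listed for it, which can be long, and windows and distances were measured from that interval. Within 50 kb of the starts of the 3 genes together, the share of peak counts was 1.32 times as high in the 400 cells as in the others (1.19 to 1.47). At ADGRL3 the level was 105 insertion events per 1000000 in the 400 and 74.8 in the others (1.41, 1.17 to 1.68), and at ITGB8 it was 147 and 107 (1.37, 1.17 to 1.60). At PPP2R2B it was 72.4 in the 400 and 63.1 in the others (1.15, 0.915 to 1.42), an interval that includes 1. The choice itself made the RNA differences of the 3 genes in the 400 cells large, so the chromatin ratios are not compared with them.

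Depth was near that of the other cells. The 400 had a median of 1361.5 UMIs, 853 detected genes and 4387.5 peak counts per cell, against 1528.0 UMIs, 913 genes and 4013.0 peak counts in the others. Mitochondrial UMIs were 14% in the 400 and 13.9% in the others, and the median Scrublet doublet score was 0.115 and 0.139. Summed, the 400 cells gave 699498 UMIs and 2446394 peak counts, and the others 15888650 UMIs and 45964384 peak counts.

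Many genes differed in RNA in both directions. MUC16 (5.41-fold, from 12.97 CPM in the other cells) and PTPRQ (4.16-fold) led the higher side, and NRP2 (ratio 0.0844) the lower. Genes were compared when the cells gave 100 or more UMIs in all and the higher group reached 20 CPM. Of 7098 such genes, 156 (2.20%) were at least 2-fold higher in the 400 cells and 119 (1.68%) at least 2-fold lower, each with an interval that excludes 1. With totals rescaled by TMM (trimmed mean of M values), which moved the median log2 ratio of all genes to -0.08, against 0.02 as reported, the counts were 111 higher and 162 lower. A gene could enter through the group where it was higher: 83 of the 156 lay under 20 CPM over all cells, and 6 of the 119. The 15 genes per direction described next are those with the largest fold at the bound nearest 1. Of the higher ones, MUC16, PTPRD, TEX41, SHC3, CDH12, TTLL7, AC005580.1 and AC098617.1 stood under 20 CPM in the other cells. They were compared only through their level in the 400.

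**Figure D1:**
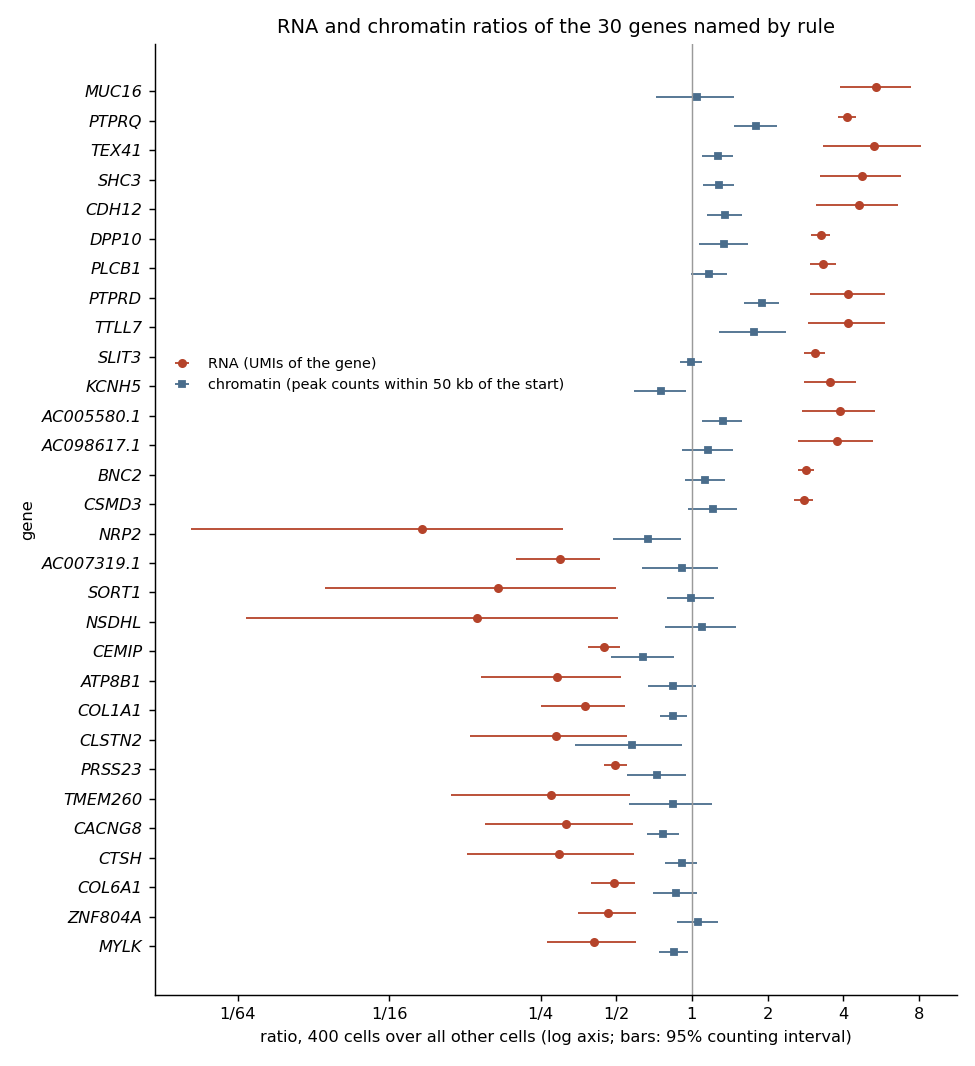
Ratio of the 400 cells to all other cells (log axis) for the 15 higher and 15 lower genes, in RNA (circles) and in peak counts within 50 kb of the start (squares), with 95% counting intervals as bars. RNA ratios run from 0.0844 (NRP2) to 5.41 (MUC16), and chromatin ratios lie nearer 1, from 0.578 (CLSTN2) to 1.90 (PTPRD).

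Among receptors and adhesion molecules, PTPRQ, a receptor-type phosphatase known from the hair cells of the inner ear, had 674 UMIs in the 400 cells and 3688 in the others, or 965 and 232 CPM (ratio 4.16, 3.82 to 4.51). At least 1 UMI of PTPRQ was seen in 55.2% of the 400 cells and 28.1% of the others, and with every cell thinned to 1000 UMIs in 43.5% and 19.1%. The level in the other cells was itself above the 125 CPM of free RNA. PTPRD, another receptor-type phosphatase, had 42 and 228 UMIs, or 60.1 and 14.4 CPM (4.19, 2.94 to 5.84). CDH12, a cadherin, had 36 and 178 UMIs, or 51.5 and 11.2 CPM (4.60, 3.12 to 6.61). MUC16, the surface mucin that carries the CA125 antigen and binds mesothelin, had 49 and 206 UMIs, or 70.2 and 12.97 CPM (5.41, 3.88 to 7.42). It was seen in 10.0% of the 400 cells and 2.17% of the others, so even where it was highest most cells showed no UMI.

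Among membrane and secreted partners of nerve cells, DPP10, a peptidase-like protein without enzyme activity that modulates potassium channels, had 614 UMIs in the 400 and 4285 in the others, or 879 and 270 CPM (3.26, 2.99 to 3.55). A UMI of DPP10 was seen in 55.5% of the 400 and 33.6% of the others. KCNH5, a voltage-gated potassium channel, had 84 and 538 UMIs, or 120 and 33.9 CPM (3.55, 2.79 to 4.48). SLIT3, a secreted ligand of the ROBO guidance receptors, had 485 and 3586 UMIs, or 694 and 226 CPM (3.08, 2.79 to 3.38). CSMD3, a large membrane protein with CUB and sushi domains, stood at 852 CPM in the 400 and 306 CPM in the others (2.79, 2.55 to 3.03).

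Among intracellular proteins, PLCB1, the phospholipase C beta that acts behind Gq-coupled receptors, had 322 UMIs in the 400 and 2206 in the others, or 461 and 139 CPM (3.32, 2.95 to 3.73). SHC3, an adaptor that links receptor tyrosine kinases to RAS, stood at 52.97 and 11.2 CPM (4.73, 3.22 to 6.77). TTLL7, which adds glutamate chains to tubulin, stood at 57.3 and 13.7 CPM (4.17, 2.90 to 5.87). BNC2, a zinc-finger transcription factor also present in mesenchymal cells, was the most abundant of the 15, with 1152.5 CPM in the 400 and 406 CPM in the others (2.84, 2.64 to 3.06). The remaining 3 were the long noncoding RNAs TEX41 (37.2 and 7.05 CPM, 5.28, 3.31 to 8.15), AC005580.1 (3.87-fold) and AC098617.1 (3.76-fold).

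The lower genes were led by NRP2, a co-receptor for semaphorins and VEGF, with 2 UMIs in the 400 cells and 539 in the others, or 2.86 and 33.9 CPM. That is a ratio of 0.0844 (0.0102 to 0.306), 11.9-fold lower with an interval of 3.26 to 98.1. Genes of matrix and its turnover were among the lower ones, although 5 of 11 collagens compared had ratios above 1. CEMIP, which takes part in the breakdown of hyaluronan, had 186 and 9443 UMIs, or 266 and 594 CPM (0.448, 0.385 to 0.518). COL1A1, the alpha 1 chain of type I collagen, stood at 41.5 CPM in the 400 and 110.5 CPM in the others (0.376, 0.251 to 0.541). COL6A1, a chain of type VI collagen, stood at 145 and 295 CPM (0.490). The secreted serine protease PRSS23 had 354 and 16228 UMIs, or 507 and 1021 CPM (0.496, 0.445 to 0.551).

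Of the others, SORT1 (sortilin, a sorting receptor) had 3 UMIs in the 400 and 404 in the rest, or 4.30 and 25.4 CPM (0.169, 0.0347 to 0.497). CTSH, a lysosomal cathepsin, stood at 11.5 and 38.6 CPM (0.297). MYLK, the kinase of myosin light chain in contractile cells, stood at 37.2 and 91.6 CPM (0.407). Membrane proteins were present here too: ATP8B1, a phospholipid flippase, stood at 15.8 and 54.1 CPM (0.291). CLSTN2, a calsyntenin of the synapse, stood at 12.9 and 44.8 CPM (0.288, 0.131 to 0.550), and CACNG8, an auxiliary subunit of AMPA receptors, at 14.3 and 45.5 CPM (0.315). NSDHL, an enzyme of cholesterol synthesis, had 2 UMIs in the 400 and 326 in the others (0.140, 0.0168 to 0.508). ZNF804A stood at 85.9 and 186 CPM (0.462), and the noncoding AC007319.1 at 41.5 and 138.5 CPM (0.300). Genes known from neurons thus stood on both sides. TMEM260 (0.275) completed the 15.

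In cells with less mitochondrial RNA the differences changed in size. With the same 400 and the other cells both limited to 10% mitochondrial UMIs, a limit tried after the data were seen, 73 of the 400 remained among 1592 cells. Of the 15 higher genes 14 still had ratios above 1, 11 with an interval above 1, and 14 were smaller than before. PTPRQ then had a ratio of 2.63 (1.98 to 3.43), DPP10 2.33 (1.78 to 2.99) and SLIT3 2.18 (1.58 to 2.93), while TEX41 had 6.57 (1.59 to 20.6) and CDH12 0.985 (0.0240 to 6.01). All 15 lower genes had ratios below 1, 3 of them with an interval below 1, and 9 lay nearer 1 and 6 farther from it than before. CEMIP had 0.732 (0.523 to 0.998), PRSS23 0.945 (0.758 to 1.17) and AC007319.1 0.203 (0.0416 to 0.598), and SORT1, NSDHL, CTSH and TMEM260 had no UMI in the 73 cells. The part of mitochondrial content in the differences was not tested.

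Long genes were higher in the 400 cells. Among the 6841 genes with a span in the annotation, the median log2 ratio was -0.17, -0.05, 0.07 and 0.21 in 4 equal classes from the shortest to the longest, and 0.468%, 0.877%, 1.35% and 5.21% of these classes were at least 2-fold higher. The median span was 171 kb for the 2-fold higher genes, 29.9 kb for the lower ones and 43.5 kb for all. Nuclear long noncoding RNAs as a sum were 1.16 times as high in the 400, with MALAT1 at 1.17, and housekeeping genes 0.851 times. The part of gene length and of nuclear RNA in the higher genes was not tested.

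Gene lists were counted at 1.5-fold, with an interval that excludes 1. Over all 7098 genes 528 (7.44%) were higher in the 400 and 323 (4.55%) lower at this fold, with a median log2 ratio of 0.02. The first lists hold the relatives and partners of the 3 genes. Of 7 latrophilins, teneurins, FLRTs and their partners, 2 were higher and 1 lower (median log2 ratio 0.41). ADGRL2, the sister latrophilin, stood at 259 CPM in the 400 and 150 CPM in the others (1.73), and the ligand TENM4 at 45.8 and 20.1 CPM (2.28). UNC5B, a netrin receptor that FLRTs also bind, stood at 44.4 and 76.4 CPM (0.581). Of 13 PP2A subunits none was higher and 1 was lower, PPP2R5E (0.614), with a median of -0.08. Of 8 integrin subunits none was higher and 2 were lower, and 7 of 8 had ratios under 1 (median -0.42). The laminin-binding chain ITGA3 stood at 226 and 355 CPM (0.637) and the collagen-binding chain ITGA2 at 10.0 and 21.4 CPM (0.468). ITGAV, the partner of ITGB8, stood at 71.6 CPM in the 400 and 63.3 CPM in the others and passed no limit.

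In TGF-beta and activin signalling, 2 of 22 genes were higher and 3 lower, with a median of 0.06 and a ratio of summed CPM of 0.969, on the other side of 1. The type I receptor ACVR1 stood at 58.7 and 26.1 CPM (2.25, 1.59 to 3.11) and the type II receptor ACVR2A at 34.4 and 18.8 CPM (1.83). The ligands were on the other side: TGFB1 stood at 30.1 CPM in the 400 and 52.5 CPM in the others (0.573), and INHBA, the subunit of activin A, at 61.6 and 97.2 CPM (0.633). TGFBI, a matrix protein induced by TGF-beta, had a ratio of 0.586.

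Of 19 YAP/TEAD targets none was higher and 5 were lower, and 6 had ratios above 1 (median -0.36). The summed CPM of the list had a ratio of 0.962 (0.934 to 0.991), nearer 1 than the median. The receptor kinase AXL stood at 61.6 CPM in the 400 and 116.5 CPM in the others (0.528), NT5E, the ectonucleotidase CD73, at 12.9 and 32.4 CPM (0.398), and tissue factor F3 at 22.9 and 42.8 CPM (0.535). AJUBA, a LIM-domain scaffold, stood at 5.73 and 22.5 CPM (0.254) and IGFBP3, a carrier of insulin-like growth factors, at 67.3 and 113 CPM (0.596). CCN1, the target often used to read YAP activity, stood at 212 and 290 CPM (0.730) and did not pass 1.5-fold. The factors themselves stood otherwise: TEAD1 was at 551 CPM in the 400 and 381 CPM in the others (1.45), and YAP1 at 147.5 and 138 CPM. Of the 19 Hippo pathway genes and TEAD cofactors, WWTR1, the relative of YAP, was the only one called, at 75.9 and 47.8 CPM (1.59), and 14 of 19 had ratios above 1 (median 0.10). NF2 had 1 UMI in the 400 and 3 in the others. Which cells met GNE7883 is unknown here, so these values cannot be set beside the drug.

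**Figure D2:**
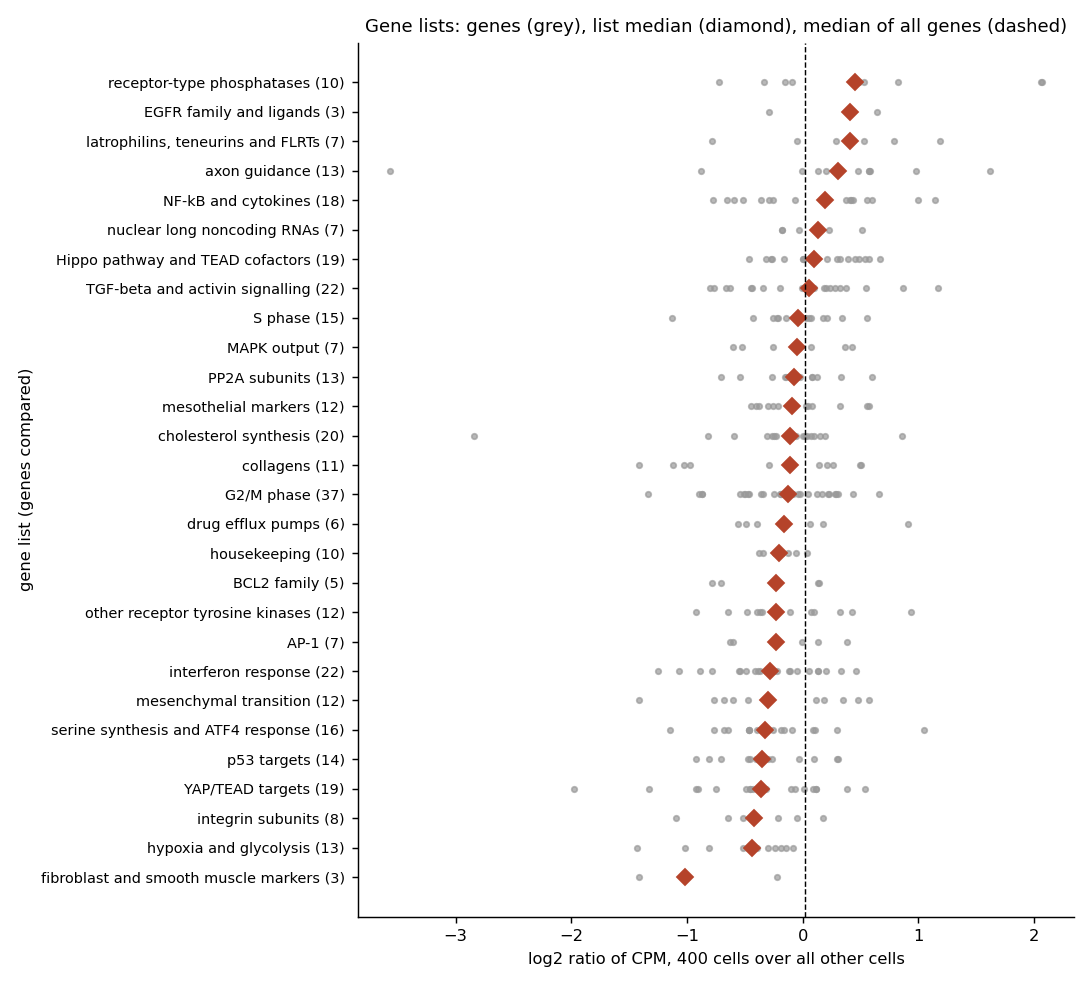
Log2 ratio of CPM in the 400 cells over the other cells, with each compared gene as a grey point, list medians as diamonds and the median of all 7098 compared genes as a dashed line. The YAP/TEAD targets had a median of -0.36 and the receptor-type phosphatases 0.46, against 0.02 for all genes.

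Further lists hold guidance and phosphatase genes. Of 10 receptor-type phosphatases 3 were higher (PTPRQ, PTPRD and PTPRJ, the last at 515 and 292 CPM, 1.77) and 1 was lower (PTPRM, 0.607), with a median of 0.46. Of 13 axon guidance genes 2 were higher and 2 lower, and 10 had ratios above 1 (median 0.31). EFNA5, an ephrin ligand, stood at 1075 CPM in the 400 and 547 CPM in the others (1.97), beside SLIT3. L1CAM, a neural adhesion molecule, stood at 28.6 and 52.7 CPM (0.544), beside NRP2. SEMA3C (1.49), SLIT2 (1.49) and ROBO1 (1.39) lay just under 1.5-fold.

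Lists of growth and state were mostly lower or near the whole. Of 13 genes of hypoxia and glycolysis, all 13 had ratios under 1 (median -0.44), and 2 were lower by the call: the glucose transporter SLC2A1 with 9 UMIs in the 400 and 415 in the others (0.493), and NDRG1 with 14 and 860 UMIs (0.370). With the same 400 and the others at no more than 10% mitochondrial UMIs this median was 0.05. Of 16 genes of serine synthesis and the ATF4 response, PHGDH, which starts serine synthesis, was higher (64.4 and 31.1 CPM, 2.07), and MTHFD2 (15.8 and 34.8 CPM, 0.453) and SLC7A5 (0.640) were lower. Of 20 cholesterol genes, SREBF2, the transcription factor of the pathway, was higher (153 and 84.3 CPM, 1.82), and the members called lower included NSDHL (0.140), so the transcription factor and this enzyme lay on opposite sides of 1. Of 22 interferon genes none was higher and 3 were lower: MX1 (31.5 and 75.03 CPM, 0.420), HERC6 (0.475) and IFIT3 (0.539). Among the 18 genes of NF-kB signalling and cytokines 3 stood higher, TNFAIP3 (2.22), CXCL1 (1.99) and C3 (1.52), and the acute-phase genes SAA1 (0.636) and SAA2 (0.584) were lower, although these are near-identical copies whose reads may be split between them.

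Lists of matrix genes include some of those named above. Of 11 collagens none was higher and 4 were lower, COL1A1, COL6A1, COL6A2 (0.510) and COL4A4 (0.459), while 5 had ratios above 1 (median -0.11). Of 12 genes of mesenchymal transition none was higher and 4 were lower, TGFBI, COL1A1 and the collagen cross-linking enzymes LOX (0.658) and LOXL2 (0.626), and 5 had ratios above 1 (median -0.30). Of 14 p53 targets, GDF15 (0.571) was the only one called. Among 6 efflux pumps (median -0.17, ratio of summed CPM 1.14) ABCA1, a cholesterol exporter, was higher (109 and 57.9 CPM, 1.88). Of 5 BCL2 family genes, BCL2L1 (0.579) was lower. EGFR stood at 733 CPM in the 400 and 469 CPM in the others (1.56), DDR2, a collagen receptor kinase, was higher (1.91), and of 7 MAPK output genes FOSL1 (0.659) was lower.

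Genes of G2/M were slightly lower and those of S phase close to the other cells. Of 37 G2/M genes 27 had ratios below 1 (median -0.13), and AURKA (0.396) and DLGAP5 (0.538) were lower by the call. The summed CPM had a ratio of 0.912 (0.869 to 0.956). Of 15 S phase genes CDC6 was lower (median -0.04). With every cell thinned to 1000 UMIs, 35.5% of the 400 (30.8 to 40.4) and 41.2% of the others (40.1 to 42.2) had at least 3 UMIs of G2/M genes, and 47.0% (42.0 to 52.0) and 58.4% (57.4 to 59.5) without thinning. For S phase genes at least 3 UMIs were seen in 8% of the 400 and 8.28% of the others after thinning.

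Markers of other cell types were not higher in the 400 cells. Of 15 mesothelial markers 12 were compared and none passed 1.5-fold (median -0.09), and their sum was 9040 CPM in the 400, 10656 CPM in the others and 12917 CPM in free RNA. WT1 stood at 98.8 and 67.1 CPM, CALB2 at 786 and 770 CPM, MSLN at 58.7 and 79.9 CPM and CDH2 at 786 and 527 CPM. Neuronal markers summed to 68.7 CPM in the 400, 69.1 CPM in the others and 62.9 CPM in free RNA, with 7 of 13 at 0 in the 400. Glial markers summed to 116, 129 and 67.8 CPM, with 9 of 14 at 0 in the 400. Immune markers summed to 7.16, 9.19 and 7.40 CPM, with 10 of 12 at 0, and endothelial markers to 21.5, 29.0 and 12.3 CPM. Epithelial markers summed to 1615 CPM in the 400 and 1860 CPM in the others, of which KRT7 gave 1591 and 1836 CPM, and EPCAM and CDH1 were at 0 in the 400. Fibroblast and smooth muscle markers summed to 140 CPM in the 400 and 278 CPM in the others, with COL1A2, COL3A1 and DCN at 0 in the 400. Neuronal and immune markers thus stood near the level of free RNA in both groups.

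Chromatin at the starts of the named genes mostly followed the RNA. Within 50 kb of the start, peak counts were relatively higher in the 400 cells at 13 of the 15 higher genes, 8 with an interval above 1, and lower at 13 of the 15 lower genes, 7 with an interval below 1. Over the 7081 compared genes with a peak in the window, 50.8% had ratios above 1 and 8.50% an interval above 1, and 49.2% had ratios below 1 and 9.26% an interval below 1. PTPRD had 1.90 (1.61 to 2.23), PTPRQ 1.81 (1.48 to 2.19), TTLL7 1.76 (1.28 to 2.38) and DPP10 1.35 (1.07 to 1.68). On the lower side CLSTN2 had 0.578 (0.343 to 0.917), CEMIP 0.641 (0.475 to 0.848) and NRP2 0.670 (0.484 to 0.905). SLIT3 (0.996) and MUC16 (1.05) had higher RNA with no such difference, and KCNH5 went the other way, with 0.754 (0.589 to 0.951). Some of these starts lay in longer stretches that differed as well. CDH12 had 1.35, beside 1.24 for chromosome 5 from 20 to 30 Mb. TEX41 had 1.27, beside 1.19 for chromosome 2 from 140 to 150 Mb. For PTPRQ the stretch (chromosome 12, 80 to 90 Mb) had 1.23, and for DPP10 (chromosome 2, 110 to 120 Mb) 1.03. The shares over all genes were not matched for peaks per window (63 at SLIT3, 6 at TTLL7). The part of stretches and peak number was not tested.

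Promoters are shown for 5 of these genes, beside windows of 1 kb around their start intervals. NRP2, CEMIP and CLSTN2 had less RNA and less accessible windows, and KCNH5 had more RNA and a less accessible window. TTLL7 had more RNA, and the interval of its window includes 1. The window of KCNH5 held 9 peaks, so its ratio does not read the printed promoter alone. Those of NRP2, CEMIP and TTLL7 held 1 peak each, and that of CLSTN2 held 2. At 1 kb NRP2 had 3 events in the 400 and 180 in the others (0.313, 0.0640 to 0.930), CEMIP 32 and 968 (0.621), CLSTN2 a ratio of 0.450 (0.164 to 0.993), KCNH5 0.638 (0.450 to 0.879) and TTLL7 1.41 (0.723 to 2.5). The sequences are RefSeq's of GRCh38.p14, 5′ to 3′ on the strand of the gene, 250 bases before the start and 50 after it, and all 5 genes matched. They lie at chr2:205682251-205682550 on the plus strand for NRP2, chr15:80779120-80779419 plus for CEMIP, chr3:139934935-139935234 plus for CLSTN2, chr14:63045409-63045708 minus for KCNH5 and chr1:83999083-83999382 minus for TTLL7. Capitals mark matches to 4 motifs searched on both strands: GGAATG of TEAD, TGANTCA of AP-1, TGACGTCA of CREB and ATF factors, and TATAAA of the TATA box, the last pair picked after the promoters were read.
NRP2: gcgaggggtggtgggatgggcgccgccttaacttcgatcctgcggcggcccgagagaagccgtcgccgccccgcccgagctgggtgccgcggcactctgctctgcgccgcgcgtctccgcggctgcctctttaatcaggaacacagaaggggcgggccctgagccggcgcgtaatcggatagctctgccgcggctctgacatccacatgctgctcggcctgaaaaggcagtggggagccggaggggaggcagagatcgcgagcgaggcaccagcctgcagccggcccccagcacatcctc
CEMIP: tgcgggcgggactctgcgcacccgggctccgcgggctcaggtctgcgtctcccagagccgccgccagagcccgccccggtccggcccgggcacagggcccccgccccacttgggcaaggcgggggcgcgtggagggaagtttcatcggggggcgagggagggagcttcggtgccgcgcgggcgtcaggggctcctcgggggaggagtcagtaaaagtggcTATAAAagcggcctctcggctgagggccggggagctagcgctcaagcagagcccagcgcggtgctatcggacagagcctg
CLSTN2: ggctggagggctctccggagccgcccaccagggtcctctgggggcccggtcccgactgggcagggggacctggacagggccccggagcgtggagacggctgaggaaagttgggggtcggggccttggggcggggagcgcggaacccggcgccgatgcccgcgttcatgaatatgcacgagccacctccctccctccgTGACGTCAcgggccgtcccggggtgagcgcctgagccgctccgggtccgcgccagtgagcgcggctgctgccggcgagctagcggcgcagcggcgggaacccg
KCNH5: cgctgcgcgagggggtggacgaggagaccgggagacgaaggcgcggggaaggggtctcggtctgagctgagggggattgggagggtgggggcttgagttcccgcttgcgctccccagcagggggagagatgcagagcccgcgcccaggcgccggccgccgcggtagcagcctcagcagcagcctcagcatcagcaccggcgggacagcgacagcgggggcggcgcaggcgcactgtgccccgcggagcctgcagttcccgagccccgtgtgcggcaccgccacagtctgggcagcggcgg
TTLL7: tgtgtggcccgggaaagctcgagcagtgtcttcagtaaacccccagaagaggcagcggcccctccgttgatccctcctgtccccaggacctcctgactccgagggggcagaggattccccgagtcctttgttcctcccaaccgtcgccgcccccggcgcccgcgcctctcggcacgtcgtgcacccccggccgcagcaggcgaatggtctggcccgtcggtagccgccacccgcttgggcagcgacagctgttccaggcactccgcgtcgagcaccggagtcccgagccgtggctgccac
CEMIP held 1 TATAAA and CLSTN2 1 TGACGTCA, and neither GGAATG nor TGANTCA was present in any of the 5. Of 35116 promoters of the same length, 14% held GGAATG, 7.71% TGANTCA, 1.85% TGACGTCA and 11.5% TATAAA. A match is a run of letters and does not show binding.

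Across all peaks, 552 of 100809 compared (0.548%) were at least 2-fold higher in the 400 cells and 266 (0.264%) at least 2-fold lower, with the nearer bound past 1.5-fold. Of the 3 genes, ADGRL3 had such a peak overlapping its start interval, at chr4:61277515-61278422, with 10 events in the 400 and 41.5 in the others (4.53, 2.02 to 9.18). That interval is long, with overlapping compared peaks from chr4:61204195 to chr4:61485813, so the peak need not lie at a promoter. PTPRD had a called higher peak at chr9:10612501-10613420, with 17 and 81.5 events (3.92, 2.18 to 6.67). The most strongly higher peak, chr7:9192730-9193631, had 21.5 events in the 400 and 43.5 in the others (9.29, 5.27 to 15.9) and lay 2.87 kb from the start of the noncoding gene AC004852.2. Another at chr7:8817435-8818290 (7.42) lay 66.4 kb from NXPH1, which encodes a neurexin ligand. The gene with the most such peaks nearest to it was ELMO1, a regulator of RAC and cell migration, with 6. On the lower side chr2:237500610-237501514, 13.3 kb from the melanosome transport gene MLPH, had 1 event in the 400 and 326.5 in the others. A peak 6.59 kb from the oxytocin receptor gene OXTR had 1 and 265.5, and one at MAN1C1 had 0 and 206.5. Peaks were compared at 50 events or more over both groups, so a higher one with fewer in the others entered through the 400. That holds for the peaks given at ADGRL3 and near AC004852.2.

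Peaks called higher lay further from gene starts, but the 2 calls take in peaks of unlike strength. A peak with few events could be called higher, while a lower call needed more events in the other cells. At a minimum of 10 counts 1996 peaks were called higher and still 266 lower. The part of peak strength in the positions was not tested. Of the 552 higher peaks 21.2% were within 1 kb of a start and 39.1% beyond 50 kb, while of the 266 lower peaks 30.8% and 16.9% were, and of all compared peaks 32.3% and 17.8%. Of the higher peaks, 54 (9.78%) lay on chromosome 7, against 5.46% of all compared peaks, and 44 (7.97%) on chromosome 13, against 2.33%. Of the lower peaks 17 (6.39%) lay on chromosome 7. None of the 266 lower peaks lay on chromosome 13, and 17 (6.39%) lay on chromosome 14, which holds 2.85% of all.

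Long stretches of several chromosomes differed in both readouts, and those of 13, 14 and X are described first. Chromosome 13 had 2.56% of peak counts in the 400 cells and 2.08% in the others (ratio 1.23, 1.22 to 1.25), and its share of UMIs had a ratio of 1.22 (1.20 to 1.24). Of its 141 compared genes 110 had ratios above 1, with a median log2 ratio of 0.29. Chromosome 14 had 2.13% of peak counts in the 400 and 2.75% in the others (0.776, 0.766 to 0.786), with an RNA ratio of 0.854 (0.839 to 0.869), and 59 of 228 genes were above 1 (median -0.26). In windows of 10 Mb, the 6 windows between 20 and 80 Mb of chromosome 14 had ratios of 0.683 to 0.833 and together 0.729 (0.719 to 0.740), and 37 of 177 genes there were above 1. From 80 to 110 Mb the ratio was 0.961 (0.937 to 0.985), and 22 of 51 genes were above 1, a split drawn after the values were seen. On X the 6 windows from 0 to 60 Mb had 0.691 to 0.814, and 14 of 77 genes were above 1 (median -0.38). On chromosome 10 the 3 windows from 110 to 140 Mb had ratios of 1.18, 1.29 and 1.41, with gene medians of 0.40, 0.46 and 0.47, and the windows from 10 to 30 Mb had 0.780 and 0.815 (-0.21 and -0.22). On chromosome 19 the windows from 30 to 50 Mb had 0.793 and 0.838 (-0.21 and -0.29). Over all 297 windows with at least 100 peaks, the 5th to 95th percentile was 0.830 to 1.21.

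**Figure D3:**
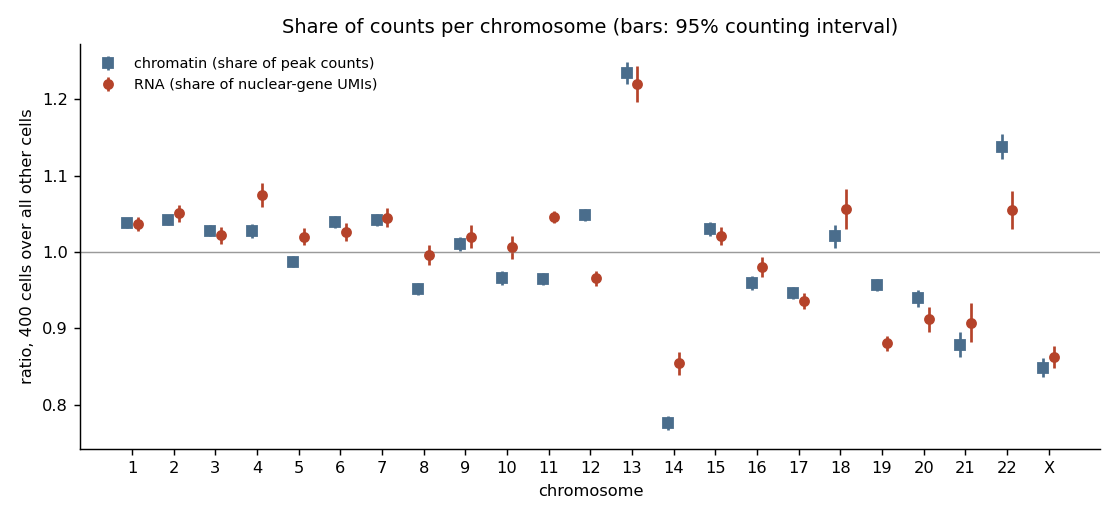
Ratio of each chromosome's share of counts in the 400 cells to its share in the other cells, for peak counts (squares) and for UMIs of nuclear genes (circles), with 95% counting intervals as bars. Chromosome 13 lies at 1.23 for peaks and 1.22 for RNA, and chromosome 14 at 0.776 and 0.854.

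Several genes described above lie on chromosome 14 (KCNH5, TMEM260, AJUBA, DLGAP5 and PPP2R5E) or X (NSDHL and L1CAM, both in the window from 150 to 160 Mb, ratio 0.779). COL6A1, COL6A2 and MX1 lie on chromosome 21, whose window from 40 to 50 Mb had a ratio of 0.8345 (gene median -0.23). AXL and TGFB1 lie in the window from 40 to 50 Mb of chromosome 19 (0.838). The part of these stretches in the RNA of the genes was not tested. KCNH5 alone among these genes was higher in RNA, at 3.55. The chromatin within 50 kb of its start had a ratio of 0.754, beside 0.683 for the window from 60 to 70 Mb that holds it and 0.776 for the chromosome. FAM155A, a gene of chromosome 13, stood at 560 CPM in the 400 and 210 CPM in the others (2.67).

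The 400 cells were not uniform. Chromatin alone, which took no part in the choice, divided the 8913 cells into 8 clusters, although the peaks of the 3 genes were among the 182179 used. Cluster 3, with 622 cells, held 174 of the 400 (43.5%, 38.6 to 48.5) and 448 of the others (5.26%). Cluster 1 held 48.0% of the 400 and 60.1% of the others, and cluster 2 held 1.75% and 13.9%. Of the 15 nearest chromatin neighbours of a member, 22.8% were members, against 4.46% for other cells, and 25.2% of members had none, against 65.7%.

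**Figure D4:**
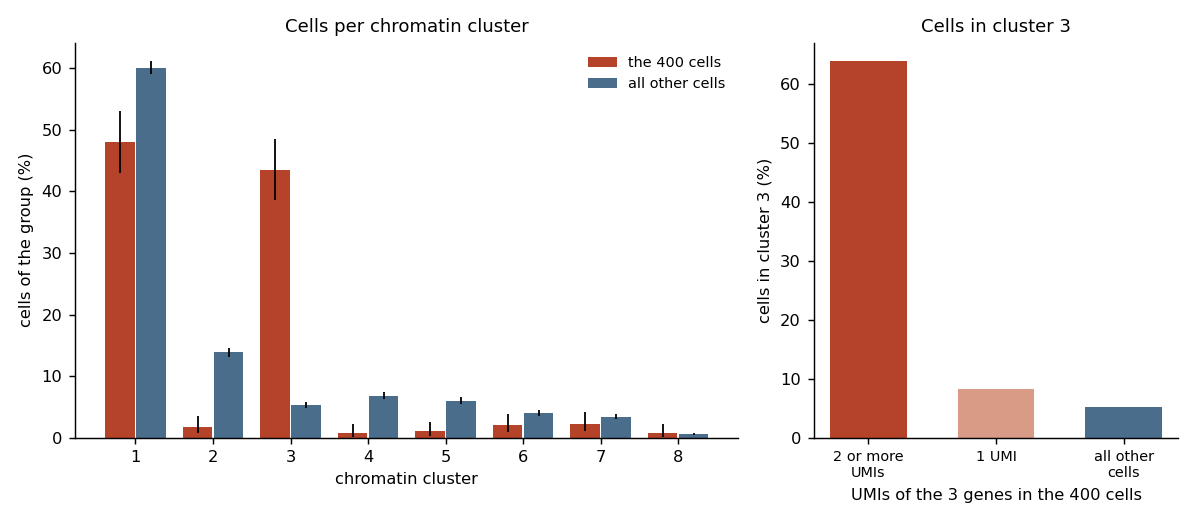
Left, percent of the 400 cells and of the other cells in each chromatin cluster, with exact 95% intervals as bars. Right, percent in cluster 3 of the members with at least 2 UMIs of the 3 genes (63.8%), of those with 1 UMI (8.22%) and of the other cells (5.26%).

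Members chosen on more UMIs were more often in cluster 3, and they were deeper. Of the 254 members with at least 2 UMIs of the 3 genes, 63.8% lay in cluster 3, of the 184 with at least 2 of the genes 68.5%, and of the 146 with 1 UMI 8.22%, beside 5.26% of the other cells. The 254 had medians of 1895 UMIs and 5761 peak counts, and the 146 had 1060.5 and 2995.5, since by the rule 1 UMI can choose only a shallow cell. Cluster 3 was itself deep, with 1997.5 UMIs and 6752.5 peak counts, and cluster 1 shallow, with 1342 and 3289. The part of depth in this division was not tested. The share of peak counts on chromosome 14 was 2.00% in the 254, 2.59% in the 146 and 2.75% in the others, and on chromosome 13 it was 2.67%, 2.19% and 2.08%. Among members whose UMIs came mostly from 1 gene, 45.5% of the 200 led by ADGRL3, 44.1% of the 68 led by PPP2R2B and 27.3% of the 55 led by ITGB8 lay in cluster 3, and 49.4% of the 77 with a tie. The members led by ITGB8 were shallower, with medians of 1097 UMIs and 2941 peak counts, against 1233 and 5075.5 for those led by ADGRL3. DPP10 was at 284 CPM in them (180 to 426), against 1046 CPM (942 to 1158) in those led by ADGRL3 and 799 CPM (653 to 969) in those led by PPP2R2B. CEMIP was at 469 CPM in them (332 to 643), against 205 CPM (161 to 258) and 200 CPM (130.5 to 293). Other genes did not follow: CSMD3 was at 875.5, 838 and 761 CPM, and KCNH5 at 148, 110 and 161 CPM, with overlapping intervals.

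The named genes differed along the same division, and within its outer part too. Among the 174 members inside cluster 3 PTPRQ stood at 1438 CPM, among the 226 outside at 347 CPM, in the other cells of cluster 3 at 689 CPM and in the rest at 201 CPM. CDH12 stood at 88.5, 3.30, 33.6 and 9.68 CPM in the same 4 sets, although the 3.30 CPM rest on 1 UMI. CEMIP stood at 96.0, 489, 209 and 621 CPM, ZNF804A at 20.2, 172, 54.3 and 195 CPM, and NRP2 at 0, 6.61, 7.90 and 35.7 CPM. MUC16 stood at 80.9, 56.1, 26.7 and 12.0 CPM. Outside the cluster, 14 of the 15 higher genes stood above 1 in members over other cells, 10 with an interval above 1, and all 15 lower genes stood below 1, 12 with an interval below 1. DPP10 had 492 CPM in members there and 246 CPM in other cells (2.00, 1.69 to 2.36), SLIT3 353 and 200.5 CPM (1.76), BNC2 611 and 369 CPM (1.65) and MUC16 a ratio of 4.67 (2.66 to 7.68). These genes were named from the same cells, so the counts describe where the differences lie. Members inside the cluster had a median of 2067.5 UMIs and those outside 1101.5. Chromosome 14 held 1.83%, 2.59%, 1.97% and 2.81% of peak counts. Cells of cluster 3 that were not among the 400 thus lay between members inside it and the remaining cells for PTPRQ, CEMIP, NRP2 and the chromosome 14 share.

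Beyond the 400, levels stepped between ranks. PTPRQ stood at 965 CPM in the 400, 423 CPM in the next 400 cells, 407 CPM in the 616 remaining cells with a UMI of the 3 genes and 203 CPM in the 7497 with none. DPP10 stood at 879, 450, 432 and 242 CPM, PRSS23 at 507, 815, 871 and 1049 CPM, and NRP2 at 2.86, 19.9, 25.5 and 35.6 CPM. The next 400 and the 616 were close to each other for PTPRQ and DPP10, and cells with no UMI lay furthest from the members in each of these genes. Cluster 3 held 43.5%, 15.0%, 21.4% and 3.42% of the 4 sets. The sets differed in depth, with median UMIs of 1361.5, 1311.5, 2307 and 1496 and median peak counts of 4387.5, 3591, 5907.5 and 3921. The part of depth in these steps was not tested.

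**Figure D5:**
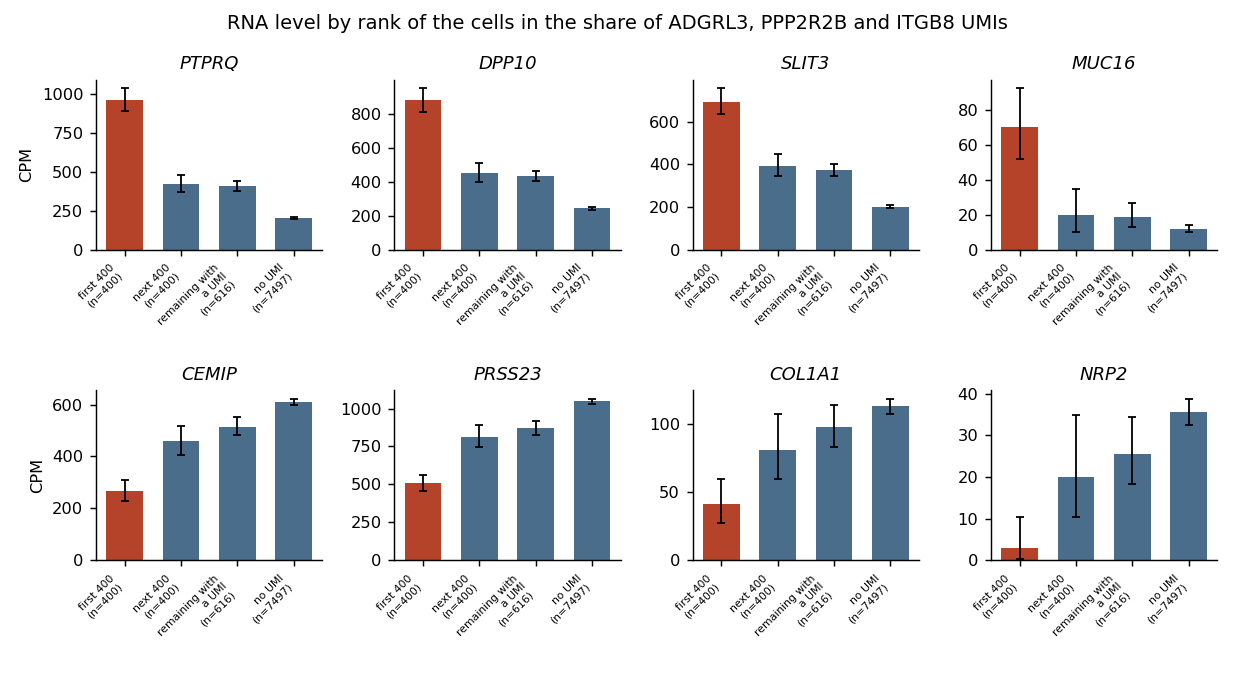
RNA levels (CPM) of 8 named genes in the 400 cells, the next 400, the 616 remaining cells with a UMI of the 3 genes and the 7497 with none, with exact Poisson intervals. PTPRQ stood at 965, 423, 407 and 203 CPM and CEMIP at 266, 458, 515 and 610 CPM.

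Over all 8913 cells, the genes most like the sum of the 3 in log2 CPM were PTPRQ (Pearson's r 0.192), DPP10 (0.183), SLIT3 (0.168), BNC2 (0.165), CSMD3 (0.154), FAM155A (0.143), PLCB1 (0.129), TNS3 (0.119), TCF7L2 (0.118) and MAST4 (0.111). The cells share 1 library and counts are sparse, so correlations this weak rank the genes and show no more.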

How the data were processed

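RNA and chromatin were read from 1 pool of cells in 3 libraries, of which the hashtag library was not used. The deposited matrix holds raw counts, UMIs per gene and transposition counts per peak, and names Cell Ranger ARC 2.0.0, per the file headers. The submitters' processing notes list MACS2, ArchR 1.0.3, Cell Ranger 2.0.0 and the build GRCh38.p10, with no roles given. It holds 36601 genes, 215590 peaks, 651860 barcodes, 54494965 UMIs and 117898281 peak counts, and the barcodes were not filtered to cells. Of 11130 barcodes past both minimums, 2217 exceeded the mitochondrial limit. Scrublet called 0 of 8913 cells and so did not work, and doublets remain.

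Counts were summed over each group of cells and scaled to 1000000 (CPM), without ADGRL3, PPP2R2B and ITGB8 in the totals. Intervals (95%) are exact conditional binomial for ratios and Clopper-Pearson for shares, cover only counting error, and carry no adjustment for how many features were compared. Since 87.9% of peak entries were even, 2 peak counts were taken as 1 event, and a peak was compared at 50 events or more. The named genes were the 15 per direction with the largest fold at the bound nearest 1, list members past 1.5-fold, and a defining member of a list for its level. Chromatin clusters came from peaks found in at least 20 cells, TF-IDF weighted, with 29 of 30 components of a singular value decomposition kept, with 15 neighbours, Leiden resolution 0.5 and seed 0. Thinning drew 1000 UMIs per cell. The scripts, tested on simulated data, used Python 3.11.15, scipy 1.17.1, scanpy 1.11.5 and leidenalg 0.10.2. The cells and the gene lists were chosen with earlier results of these data known. Alternatives varied the number of members, the cell filter, scaling, count minimums, depth matching, doublet scores and the genes used for ranking. Some items are not reported here.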

Additional observations from a re-analysis of the deposited data

How the results depend on the processing

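The 156 higher, 119 lower genes, 552 higher and 266 lower peaks depended on the cells and features counted. The number of features compared changed with the setting, from 7098 genes as reported, so the counts are not shares. With 200 members 304 of 7266 genes were higher and 228 lower, with 800 members 60 and 32 of 6890. With cells limited to 10% mitochondrial UMIs and ranked again, 1 and 2 of 4169 genes and 2 and 2 peaks were called. Only 228 of those 400 cells had a UMI of the 3 genes. With the same 400 and the other cells limited to 10%, chosen after seeing the data, the counts were 79 and 72 of 4169 genes and 21 and 12 peaks. At 2000 UMIs and peak counts they were 55 and 33 of 6983 genes and 101 and 162 peaks, and at 500 of each 78 peaks were lower. A minimum of 10 counts gave 339 and 229 of 15973 genes, and 1996 higher peaks among more peaks compared. Ranking without ADGRL3 gave 91 and 70 of 7013 genes and 286 and 119 peaks, and without PPP2R2B 176 lower peaks. Members with at least 2 UMIs gave 258 and 199 of 7175 genes, and members with 1 UMI gave 214 and 13 peaks, both settings chosen after seeing the data.

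The chromosome 13 ratio (1.23) was 1.30 with 200 members, 1.18 with 800, 1.03 with cells ranked again at 10% mitochondrial UMIs, 1.21 with the same 400 at 10%, 1.20 at 2000 UMIs, 1.19 at 500, 1.16, 1.22 and 1.20 ranked without ADGRL3, PPP2R2B and ITGB8, 1.28 for members with at least 2 UMIs and 1.06 for those with 1. The chromosome 14 ratio (0.776) was 0.718, 0.828, 0.970, 0.856, 0.803, 0.809, 0.839, 0.808, 0.795, 0.729 and 0.943 in the same order. Around the starts of the 3 genes the ratio (1.32) was 1.14 at 10% mitochondrial UMIs, 1.58 with the same 400 and 1.13 for members with 1 UMI. The share of members in the cluster richest in them (43.5%) was 63.5% with 200 members, 29.2% with 800, 26.0%, 35.5% and 36.0% without ADGRL3, PPP2R2B and ITGB8, 63.8% with at least 2 UMIs and 8.22% with 1. Neighbours that were members (22.8%) were 26.1% with 200 members and 10.4%, 16.8% and 17.2% without each gene. Clusters and neighbours were not recomputed under other cell filters.

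Ratios that crossed 1 with cells ranked again at 10% were ATP8B1 (1.07), BNC2 (1.00), COL6A1 (1.06), CSMD3 (0.962), KCNH5 (0.708), MYLK (1.02), NRP2 (1.13), NSDHL (1.89), PRSS23 (1.05), PTPRD (0.900), TEX41 (0.831) and ZNF804A (1.28), with the hypoxia and glycolysis median at 0.21 over 9 genes. With the same 400 at 10% CDH12 crossed (0.985), with medians of 0.051 for hypoxia and glycolysis, over 9 genes, and -0.017 for all genes. The all-gene median was -0.082 under TMM and -0.033 at a minimum of 10 counts. For members with 1 UMI, AC005580.1 (0.810), ZNF804A (1.01) and the fibroblast marker median (0.23) crossed. The causes were not tested. No paired analysis was possible because the pool is 1 sample. Of single genes under the alternatives, 359 values stayed within the interval, 166 moved and 15 crossed 1. Low depth limits genes with few UMIs, such as NRP2 with 2 in the 400.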

Other observations

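The genes given here were chosen for their values, so they support no group, and UNC5C, ROBO2, EPHA7 and ELMO1 lay under the minimum of 100 UMIs used in the comparison. UNC5C, a netrin receptor, had 19 UMIs in the 400 cells and 54 in the others (ratio 8.0, 4.48 to 13.7), and ROBO2, a receptor of SLIT ligands, had 13 and 56 (5.28). EPHA7, an ephrin receptor, had 7 UMIs in 6 of the 400 cells and 3 in all others (53.1, 12.1 to 318), which rests on few molecules. GHR, the growth hormone receptor, stood at 77.3 CPM in the 400 and 24.6 CPM in the others (3.14), and IL1R1, the interleukin-1 receptor, at 126 and 45.4 CPM (2.77). TNS3, a focal adhesion protein (2.47), TCF7L2, a transcription factor of Wnt signalling (2.46), and MAST4, a kinase (2.49), were higher as well.

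RNA and chromatin parted at the gene EPDR1 on chromosome 7. It had 8 UMIs in the 400 cells and 422 in the others (0.431), while 4 of the higher peaks had its start as the nearest. ELMO1, with 6 such peaks, had 7 UMIs in the 400 and 41 in the others (3.88).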
